A study of Mus musculus with 2 samples.

Results

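Long intergenic non-coding RNA (lincRNA) genes form an annotation class of loci that give long RNAs with no annotated protein, for the most part between protein-coding genes. In heart of mouse embryos, 166 of them reached a TPM of 1 or more in both libraries of the series. The members were chosen by their TPM from the 2131 lincRNA genes of GENCODE release M21 that the files list on the autosomes, leaving out H19, Meg3 and Mirg by name, so 7.79% of the eligible genes are members. Rian, also left out by name, belongs to another class in M21. TPM is a level corrected for transcript length and scaled to the same sum in every library, and because it chose the members, it is given as a description with no test.

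RNAs of this class work in several ways. Some act in the nucleus as scaffolds of speckles or paraspeckles, some bind and sequester proteins or microRNAs, and some are the precursors from which small nucleolar RNAs or microRNAs are cut. At other loci the act of transcription, or an enhancer inside the locus, acts on a neighbouring gene rather than the RNA itself. In the heart, the class is known for RNAs transcribed beside regulators of cardiac development.

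The series has 1 group of 2 libraries, biological replicates 1 and 2, of total RNA from heart at embryonic day 13.5 in the B6NCrl strain. Each library came from healthy embryos of both sexes, pooled, with no transgene, mutation or treatment named in the labels, and 10 ng of RNA above 200 nt was used with spike-in RNA added. The labels name the same donor entry for both tissue samples, so whether the pools share litters is not stated, and the spread between the libraries may be partly technical. The estimated reads summed to 36733400 in replicate 1 and 36060765 in replicate 2. All 12 cardiomyocyte markers on a fixed list passed 1 TPM, and their summed TPM was 32032 and 38622. None of 10 brain markers passed, while 8 of 11 liver, 5 of 8 lung and 5 of 10 skeletal muscle markers did. Liver markers summed to 99.1 TPM in replicate 1 and 490 in replicate 2, skeletal muscle markers to 526 and 639, and erythroid markers to 71098 and 46165. With 1 library on each side of every difference between the replicates, no p-value was computed. Levels below are mean ± SD over the 2 libraries (n = 2) where not given for each library, and positions are on GRCm38 (mm10).

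Members were mostly low in abundance. Their median level was 2.95 TPM, with quartiles of 1.61 and 8.02, and the medians within the libraries were 2.66 and 2.96. Of the 166, 58 had a mean from 1 to under 2 TPM, 49 from 2 to under 5, 27 from 5 to under 10 and 27 from 10 to under 100, and only 5 were higher. The same minimum was passed by 12309 of 21474 protein-coding genes (57.3%), whose median was 15.1 TPM with quartiles of 5.78 and 39.3. Among the 231 antisense RNA genes that passed it, 11.2% of their class, the median was 2.34 TPM, and among the 137 of the class called processed transcript, 23.03% of theirs, it was 3.57 TPM. In whole tissue, fewer cells of a type and less RNA per cell cannot be told apart, so a low level here can be a low level in all cells or a higher one in few.

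**Figure D1:**
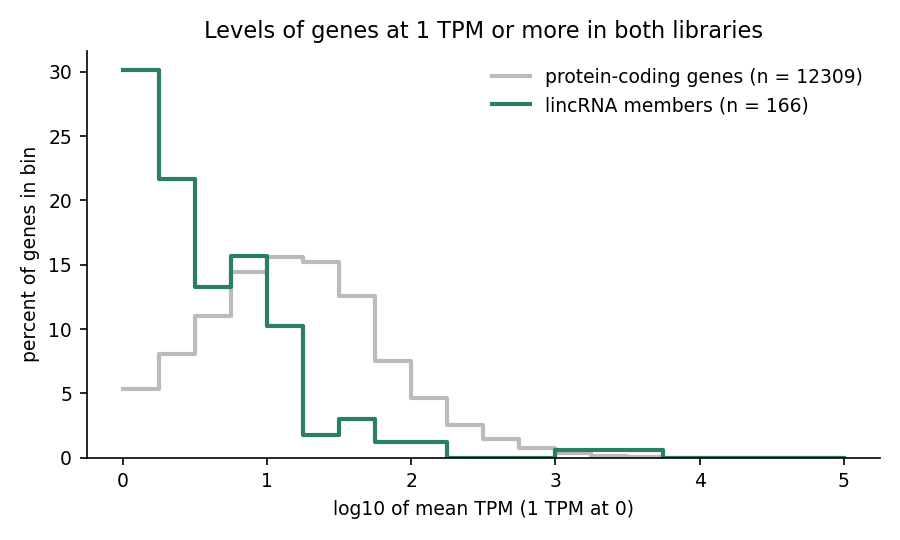
Share of genes (percent) in bins of the log10 of mean TPM for the 166 lincRNA members and the 12309 protein-coding genes that reached 1 TPM in both libraries. The members crowd near the minimum, with a median of 2.95 TPM against 15.1 TPM, and a few lie above 1000 TPM.

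Values on both sides of the minimum were close. By the lower of the 2 libraries, the members closest to it from above were E130018N17Rik at 1.24 and 1.00 TPM in replicates 1 and 2, Gm26896 at 1.01 and 1.20, and, tied at 1.02, Gm38025 with 1.57 and Redrum with 2.18 in replicate 2. Just outside were 5830454E08Rik at 1.36 and 0.99, D230017M19Rik at 0.98 and 1.12, and Gm12866 at 0.98 and 1.42. These 3 are among 45 eligible genes that reached the minimum in 1 library only, and 1102 were listed at 0 in both. The deposited interval of TPM, whose level the sources used here do not state, lay above 1 in both libraries for 131 members and reached below 1 in at least 1 library for the other 35. The depth behind a member varied widely, as 40 members had under 50 reads in at least 1 library and the smallest, Gm38079, had 2 and 3 reads.

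All members together held 1.03% of TPM in replicate 1 and 1.12% in replicate 2. This sum was dominated by 3 loci. Malat1 alone held 47.3% and 49.8% of the members' TPM, and Gm42418 with Gm26917 held 39.4% and 36.6%. The other 163 members summed to 1361 and 1529 TPM. The 15 highest members held 93.9% of the class in both libraries.

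Malat1, the abundant RNA of nuclear speckles, lies on chromosome 19 (5795690 to 5802672, minus strand) and was the highest member, at 4860.2 TPM (replicate 1) and 5589 TPM (replicate 2). The value rested on a short transcript model. The files assigned 54681 and 58845 of the gene's 59496 and 63502 reads to a model 485 nt long, and 4804 and 4658 reads to the model of 6983 nt that spans the locus. The short model therefore held 99.5% and 99.6% of the gene's TPM. If all reads of the gene were spread over the model of 6983 nt, Malat1 would stand at 295 and 337 TPM, lower by 16.5 times in the mean and below Gm42418 and Gm26917. Which model the RNA in these hearts follows was not tested.

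Neat1, its neighbour on chromosome 19 (5824708 to 5845478) and the scaffold of paraspeckles, was at 8.25 and 7.30 TPM. It is made as a short form that ends early and a long form that builds the paraspeckle. The long model of 20771 nt took 547 and 517 reads and the model of 3004 nt 616 and 501 reads, so both received similar read numbers in each library. On the scale of TPM, which divides by length, the short model was at 7.24 and 6.29 and the long one at 0.90 and 0.91.

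Gm42418 and Gm26917, next in level, border each other on chromosome 17 and lie at a copy of ribosomal RNA sequence. Gm42418 (39846958 to 39848788) was at 2682 and 2840 TPM, and 1245 of its 1831 bp lie inside Rn18s-rs5, a copy of 18S ribosomal RNA that RefSeq annotates as a pseudogene and of which it lists Gm42418 as a synonym. Gm26917 (39843013 to 39846341) was at 1365 and 1274 TPM and ends 13 bp before Rn18s-rs5 starts. Together they took 265227 and 247515 reads, 0.722% and 0.686% of all reads, of the 1.02% and 1.01% that all members took. Both have estimated counts that are not whole. How much of their level is ribosomal RNA left in the libraries was not tested.

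Gm10076 on chromosome 14 was at 161 and 193 TPM. RefSeq calls it a pseudogene, and 69.9% of its windows of 50 nt also occur in Rpl41, a gene of the large ribosomal subunit at 2068 and 2363 TPM. 1810058I24Rik on chromosome 6 was at 160.1 and 174 TPM, with 83.9% of its TPM in a transcript of 690 nt, and RefSeq annotates it as protein-coding. It shared 0.141% of its windows with any other gene. Gm7292 at 52.8 and 57.5 TPM shared 77.5% of its windows with 2900097C17Rik, which was itself at 34.2 and 37.9 TPM. The latter is Norad, an RNA known to bind Pumilio proteins. Its longest model in the files has 1149 nt and its longest in M21 4915 nt, so its TPM is that of a shorter model.

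Among the remaining members of the 15 highest, Lockd, transcribed downstream of the cell cycle inhibitor gene Cdkn1b, was at 72.6 and 80.2 TPM, while Cdkn1b was at 11.2 and 14.2 TPM. The longest Lockd model counted has 544 nt, against 5662 nt in M21. The Lockd TPM is therefore that of a shorter model. The host of a small nucleolar RNA, Snhg6, was at 56.7 and 58.9 TPM. 1700020I14Rik, also called Cyrano or Oip5os1 and known to direct decay of miR-7, was at 49.99 and 60.7 TPM, above its neighbour Oip5 at 15.9 and 18.7. Tmem250-ps, which RefSeq annotates as protein-coding, was at 47.6 and 52.7 TPM. Snhg20 was at 41.2 and 46.0 TPM and Carmn at 26.7 and 31.3 TPM. Gm26809 was at 19.03 TPM in both libraries, and Gm26825 at 17.1 and 28.4, the widest spread of the 15 relative to its mean. Replicate 2 was the higher library for 13 of the 15 highest members, and for 114 of all 166, on a scale where the median gene of all tested was also higher there by 0.15 (log2).

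**Figure D2:**
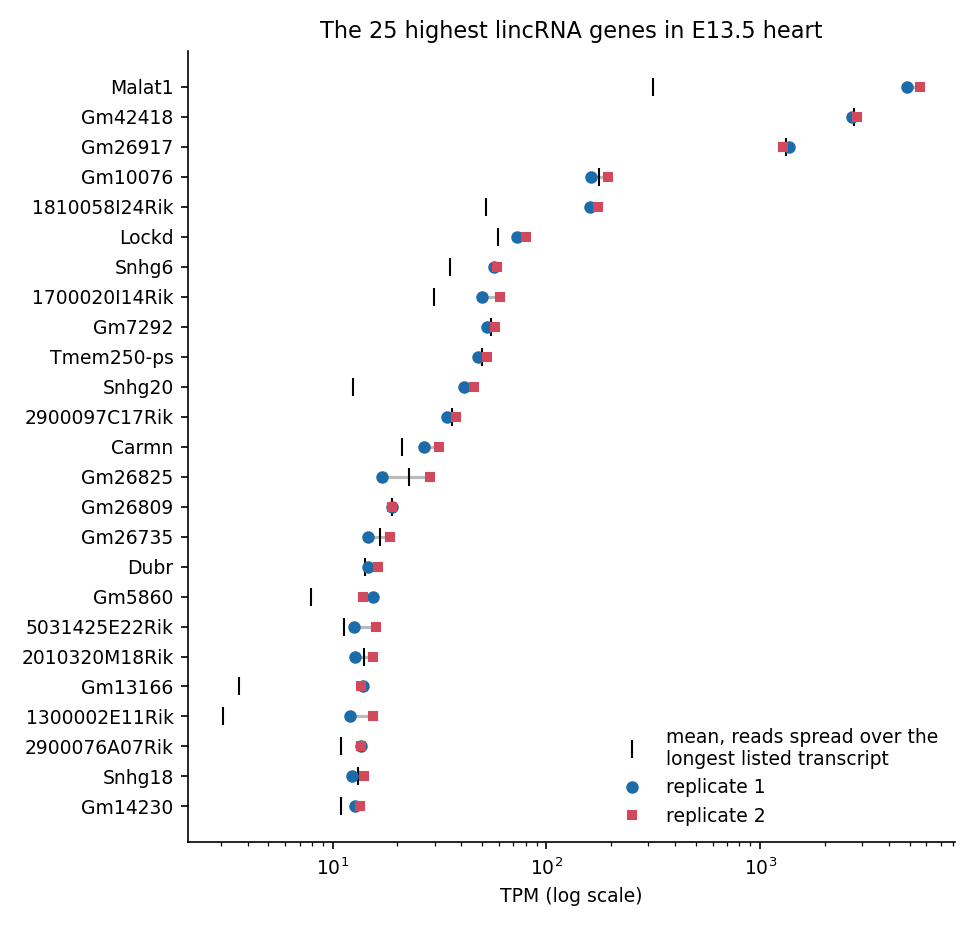
TPM (log scale) of the 25 highest members in replicate 1 (circles) and replicate 2 (squares), and the mean when all reads are spread over the longest listed transcript (ticks). Malat1 moves from 4860.2 and 5589 TPM to a mean of 316, while Gm42418, with 1 listed model, keeps its value.

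Of 143 long non-coding RNA names on a list of studied genes, 98 are in the files, 37 are eligible and 19 are members. Carmn and Bvht (Braveheart), both studied as RNAs of cardiac mesoderm, lie side by side on chromosome 18 with 2152 bp between them. Bvht was at 6.24 and 8.03 TPM, below Carmn in both libraries, with 95.5% of its TPM in a transcript of 588 nt, and 57.4% of Carmn's TPM was in a transcript of 988 nt. Dubr was at 14.6 and 16.2 TPM, and 5430416N02Rik at 10.1 TPM in both libraries. Pvt1, which lies 47611 bp from Myc, was at 3.0 and 3.19 TPM. Its leading transcript differed between the libraries, and its 10 listed models each held at most 34.3% of the gene in either. Of the 18 eligible names below the minimum, Trp53cor1 came nearest with 0.87 and 1.28 TPM, Miat was at 0.48 and 0.09, Lncpint at 0.26 and 0.33, and Hotair and Hottip were listed at 0. A further 33 names passed 1 TPM but belong to other classes in M21, among them the processed transcripts Hand2os1 at 149 and 174 TPM and Gas5 at 242 and 296, and the antisense RNA Mhrt at 24.6 and 28.3.

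Small RNA genes on the same strand lay inside 13 members (7.83%), against 40 of the eligible genes that are not members (2.04%). The 7 hosts of small nucleolar or Cajal body RNAs, which guide modification of other RNAs, ranged from 8.41 to 57.8 TPM with a median of 13.2, so all stood above the members' median of 2.95. Besides Snhg6 and Snhg20, they were 2900076A07Rik at 13.6 TPM in both libraries, Snhg18 at 12.3 and 14.04, Epb41l4aos at 11.2 and 14, Snhg12 at 8.10 and 10.1 with 4 such genes inside, and 2700038G22Rik at 7.70 and 9.11.

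The 7 hosts of microRNA genes were lower for the most part. Mir670hg was at 7.60 and 8.51 TPM, 6720427I07Rik at 2.42 and 2.72, Mir17hg at 1.36 and 2.44, E130102H24Rik at 1.17 and 2.10, Gm21814 at 1.24 and 1.52 and Mir142hg at 1.41 and 1.07, with Snhg20 the highest. Mir142hg, the host of a microRNA of blood cells, rested on 7 and 5 reads. The libraries hold RNA above 200 nt, so these are levels of host transcripts and not of mature microRNAs. Mature sequences are shown because a single host can carry several microRNAs that share a seed, the bases 2 to 8 that pair with targets, given in capitals (RefSeq, GRCm38.p6, 5′ to 3′). Mir17hg on chromosome 14 holds the miR-17-92 cluster, a regulator of heart size and cell proliferation, with 2 seeds each used by a pair of its microRNAs.
miR-17-5p: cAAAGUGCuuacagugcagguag
miR-20a-5p: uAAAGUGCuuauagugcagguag
miR-18a-5p: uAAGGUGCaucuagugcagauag
miR-19a-3p: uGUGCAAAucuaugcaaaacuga
miR-19b-3p: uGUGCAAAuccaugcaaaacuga
miR-92a-3p: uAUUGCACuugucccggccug

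6720427I07Rik on chromosome 13 holds 3 genes of the let-7 family, whose members rise as cells differentiate. Their 5′ arms carry the same seed.
let-7a-5p: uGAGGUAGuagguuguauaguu
let-7d-5p: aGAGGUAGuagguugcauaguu
let-7f-5p: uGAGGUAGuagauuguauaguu

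Mir142hg holds miR-142a, the arms of which have different seeds, and E130102H24Rik holds miR-101a.
miR-142a-5p: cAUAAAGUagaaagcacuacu
miR-142a-3p: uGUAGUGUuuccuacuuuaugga
miR-101a-3p: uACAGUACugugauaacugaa

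Which members neighbour genes of heart development was read from 188 cardiac genes, 186 of which matched protein-coding genes of M21. In all, 10 members (6.02%) lay within 100 kb of one, against 57 of 1965 eligible genes that are not members (2.90%) and 429 of 11711 protein-coding genes at 1 TPM outside the list (3.66%). Members also lay closer to protein-coding genes of any kind, at a median gap of 1909 bp against 27131 bp for eligible genes that are not members. The part of that closeness in the cardiac share was not tested. Of the 10 cardiac genes, 7 encode transcription factors or cofactors. The share of such genes on the whole list is not given here, so this count is a description only. In all 10 pairs the cardiac gene was the higher in both libraries. Members were also lower in general, with a median of 2.95 TPM against 15.1 TPM for protein-coding genes that passed the minimum. The members themselves ranged from 1.28 to 16.6 TPM in the mean.

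Gm26735 on chromosome 13 was the highest of them at 14.7 and 18.5 TPM. It overlaps Sox4, a factor of the outflow tract at 29.2 and 30.1 TPM, on the opposite strand, and 98.7% of its windows of 50 nt occur in Sox4 transcripts, so reads of the pair cannot be told apart where strand was not used in counting. The second, 5033428I22Rik on chromosome 8 at 5.72 and 6.41 TPM, lies 7484 bp from Hand2, a factor of the right ventricle and outflow tract at 9.75 and 9.93 TPM, and it shared 7.45% of its windows with other genes. On chromosome 2, 2700033N17Rik at 3.94 and 5.28 TPM lies 378 bp from Meis2, a homeobox gene at 23.4 and 26.2. Gm12295 on chromosome 11 was at 4.00 and 4.06 TPM, 7664 bp from Myocd, the partner of serum response factor in cardiac and smooth muscle, at 51.7 and 49.0. None of the windows of Gm12295 was shared, and its counts of 208 and 238 were whole.

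Lower members sat beside further cardiac regulators. Gm20468 was at 1.05 and 1.60 TPM, 16411 bp from Nkx2-5, an early cardiac homeobox factor at 105 and 116 TPM, and rested on 10.9 and 15.5 estimated reads. B230312C02Rik was at 1.28 and 1.27 TPM, 35791 bp from Gata5 at 11.5 and 9.66. Gm26523 lies inside Prrx1 on the same strand at 1.45 and 1.36 TPM, against 6.34 and 5.21 for Prrx1. A430046D13Rik at 2.27 and 2.42 TPM lies 63280 bp from the neuregulin receptor gene Erbb3, at 2.84 and 3.37, and 2810405F17Rik at 2.45 and 2.55 lies 80386 bp from the perlecan gene Hspg2, at 38.9 and 40.1. Gm38399 at 3.64 and 3.27 TPM overlaps Nav1, which RefSeq assigns it to, and lies 91328 bp from Tnni1, a troponin I of the embryonic heart at 2795 and 3441 TPM. A330069E16Rik at 1.34 and 1.57 TPM fell just outside, 100629 bp from Mybpc3.

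**Figure D3:**
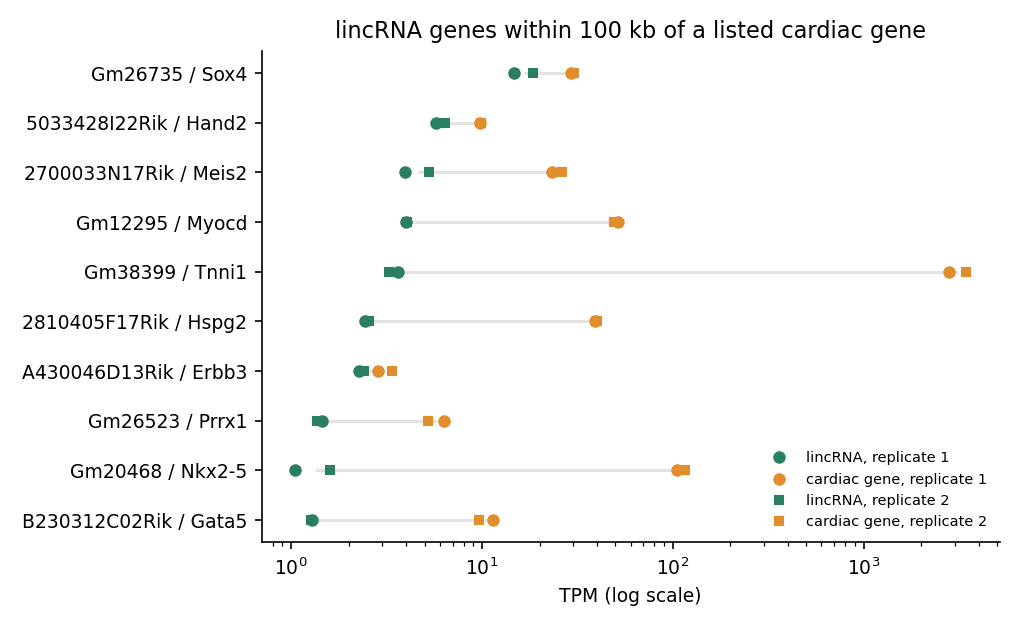
TPM (log scale) of the 10 members within 100 kb of a listed cardiac gene and of that gene, in replicate 1 (circles) and replicate 2 (squares). The cardiac gene is higher in each pair and library, by the least for A430046D13Rik with Erbb3 and by the most for Gm38399 with Tnni1.

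Against protein-coding genes at large, members lay close. The median gap to the nearest one was 1909 bp, and 27131 bp for eligible genes that are not members. Members overlapped a protein-coding gene on the opposite strand in 41 cases (24.7%, against 11.8%). The nearest protein-coding gene passed 1 TPM in both libraries for 126 members (75.9%, against 66.1%), at a median of 11.1 TPM against 5.14 TPM. Members were chosen by TPM, and 1 that overlaps an expressed gene can reach the minimum through reads of sequence shared with that gene. The part of such reads in these differences was not tested.

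A start within 1 kb of a protein-coding start on the opposite strand was found for 29 members (17.5%). The same held for 196 eligible genes that are not members (9.97%). Divergent pairs with a shared promoter have such starts. Orientation was assigned for each member against its nearest protein-coding gene. Of all members, 42 were head to head with that gene and 41 overlapped it on the opposite strand. Orientation was not counted for the 29 pairs alone, so some of them may overlap rather than diverge. Gm5914, for example, shared 63.1% of its windows with its partner Ctcf. The protein-coding partner was the higher in 23 of the 29 pairs, with a median of 15.1 TPM for partners and 3.39 TPM for members and a median ratio of 3.601. At one end, Gm13830 was at 1.61 ± 0.25 TPM and Dynll1, a dynein light chain gene 121 bp away, at 1043 ± 162 TPM. Srsf1, a splicing factor gene 13 bp from 2010015M23Rik, was at 136 ± 7.1 TPM and the member at 1.75 ± 0.014. At the other end, Snhg18 was at 13.2 ± 1.2 TPM and Sema5a, a guidance gene 148 bp away, at 2.95 ± 0.42. A930029G22Rik was at 1.73 ± 0.30 TPM where Akain1 was listed at 0 and 0.03. The named pairs were chosen after their values were seen.

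**Figure D4:**
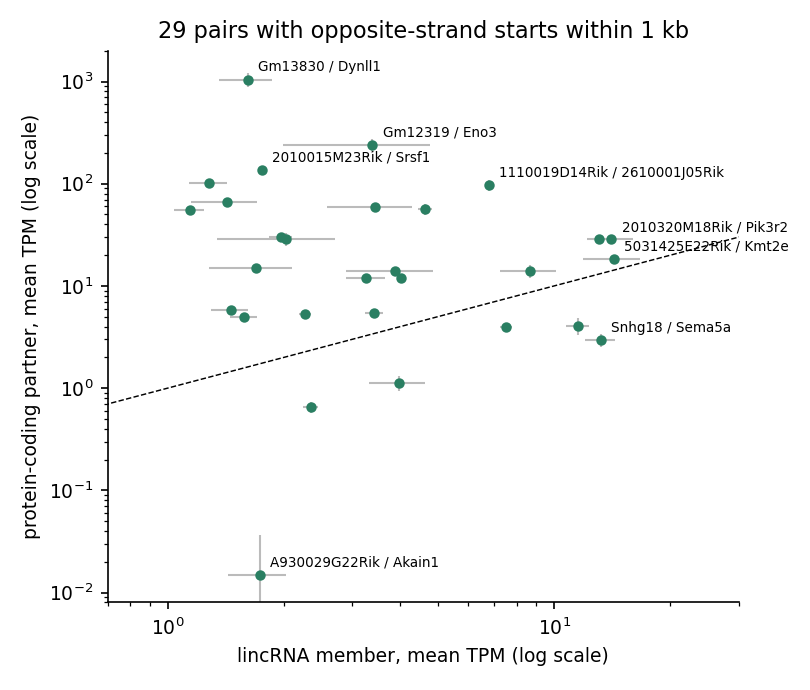
Mean TPM of the 29 members whose start lies within 1 kb of an opposite-strand protein-coding start (x) and of that partner (y), both on log scales, with bars of 1 SD over 2 libraries and a dashed line of equal level. The points above the line are the 23 pairs in which the protein-coding gene was higher.

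RefSeq lists a promoter window, 250 bases before to 50 after a start, for 78 members. The RefSeq and M21 starts lay within 50 bp of each other for 47 of them. The shares below are over all 78. A ratio of observed to expected CpG over 0.6, a mark of CpG island promoters, was found in 42 of the 78 windows (53.8%). The share was 14.7% of 856 windows of eligible genes that are not members, 73.2% of 9673 of protein-coding genes at 1 TPM and 36.4% of all 27025. The median GC content was 56.7% for members and 48.3% for non-members. The TATA box, searched as TATAAA on both strands, occurred in 8.97% of the members' windows and 14.2% of all windows. A GATA motif, AGATAA, occurred in 10.3% and 11.4%, the NKX2-5 motif TNAAGTG in 11.5% and 11.5%, and the T-box half-site AGGTGTG in 2.56% and 5.86%.

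The windows of 3 members are shown, with each CpG in capitals. The first, 2010320M18Rik and Snhg18, have a start within 1 kb of an opposite-strand protein-coding start. They were the highest of such members whose RefSeq and M21 starts lie within 50 bp. 2310040G24Rik had the lowest CpG ratio among members of at least 5 TPM. 2010320M18Rik was at 12.7 and 15.4 TPM, with Pik3r2, a regulatory subunit gene of phosphoinositide 3-kinase, 102 bp away at 28.4 and 28.7. Its window (GRCm38.p6, chr8:70776612-70776911, plus strand) holds 43 CpG, and that of Snhg18 (chr15:32244613-32244912, minus strand) holds 31. 2310040G24Rik (chr6:86488178-86488477, minus strand) has 3.
2010320M18Rik: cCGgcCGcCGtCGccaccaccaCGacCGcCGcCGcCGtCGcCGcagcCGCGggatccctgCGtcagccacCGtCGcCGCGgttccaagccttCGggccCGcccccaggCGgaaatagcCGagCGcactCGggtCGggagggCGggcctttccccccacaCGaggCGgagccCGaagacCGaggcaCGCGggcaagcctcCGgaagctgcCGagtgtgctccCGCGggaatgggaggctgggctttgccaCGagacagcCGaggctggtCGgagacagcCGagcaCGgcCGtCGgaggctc
Snhg18: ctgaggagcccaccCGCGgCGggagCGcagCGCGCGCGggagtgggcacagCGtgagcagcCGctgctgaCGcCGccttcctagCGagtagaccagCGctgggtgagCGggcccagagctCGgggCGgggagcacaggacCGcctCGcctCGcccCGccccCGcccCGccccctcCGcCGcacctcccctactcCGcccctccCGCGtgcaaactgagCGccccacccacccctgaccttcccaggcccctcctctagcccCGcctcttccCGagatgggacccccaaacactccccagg
2310040G24Rik: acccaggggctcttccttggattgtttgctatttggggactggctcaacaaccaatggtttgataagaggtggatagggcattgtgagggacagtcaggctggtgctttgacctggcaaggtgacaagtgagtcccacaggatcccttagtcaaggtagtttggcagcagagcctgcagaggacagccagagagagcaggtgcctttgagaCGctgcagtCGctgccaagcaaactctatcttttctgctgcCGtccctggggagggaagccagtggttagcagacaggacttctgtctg

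The CpG ratio of these windows was 1.03, 0.77 and 0.14, and none of them held any of the motifs searched.

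Members had fewer exons and shorter transcripts than protein-coding genes. The longest transcript had a median of 1718.5 nt in members, 1001 nt in eligible genes that are not members and 3395 nt in protein-coding genes at 1 TPM. Single-exon genes made up 12.05%, 5.70% and 2.23% of these sets. The files list at least 2 transcripts for 69 members. A single transcript made up over 50% of the gene in each library for 54 of these, and the leading transcript was the same in both for 60.

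The uniqueness of a member's sequence bears on its value, since the deposited estimates divide a read that fits several transcripts. Windows of 50 nt were compared on both strands with all other transcripts of M21. Reads were divided over the models of M4, so some partners, such as CT010467.1 for Gm42418, are not in the files and took no reads there. No window was shared in 60 members, and the median share was 2.31%, but 24 members shared over 50%, 18 of them with protein-coding genes. Of the 18, 14 overlapped a protein-coding gene on the opposite strand, and in 12 of the 14 that gene was higher in both libraries. Examples are Gm26718 at 11.2 and 9.75 TPM, which shared 96.7% with Pgam5 at 36.4 and 45.5, and Gm26751 at 10.6 and 10.0, which shared 99.0% with Nynrin at 13.5 and 12.8. Estimated counts were not whole in 62 members, and the median share was 38.4% in these and 0% in the other 104. Exons of 62 members overlapped exons of another gene on the opposite strand, and whether strand was used in counting was not stated in any source at hand. RefSeq matched 102 members and classed 90 as long non-coding RNA, 8 as protein-coding and 4 as pseudogenes.

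The libraries were close for the members. Of the 166, 131 had a mean scaled count of at least 50, and the median log2 ratio of replicate 2 over replicate 1 was 0.03, against −0.003 for all 13760 genes with that count. The ratio was above 0 for 74 and below 0 for 57, and 124 lay within 0.5 of 0. None was at least 2-fold higher in replicate 2, where 0.734% of all genes were, and 1 was at least 2-fold lower, where 0.269% were, so neither count stands out from all genes. The coefficient of variation between libraries beyond counting noise was 0.120 for 161 members and 0.0838 for 14278 protein-coding genes. The members were not fitted again without the 1 past 2-fold, so its weight in their value is not known. At mean counts of 50 to 100 the median absolute log2 ratio was 0.21 for members and 0.28 for protein-coding genes, and at 100 to 200 it was 0.18 and 0.21. It was 0.15 and 0.13 at 200 to 500, 0.05 and 0.09 at 500 to 1000, where only 6 members fall, and 0.07 for both above 1000, so neither set had the wider ratios at every depth.

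The member past 2-fold was Gm26870 on chromosome 9 (3000282 to 3038313), at 6.67 TPM in replicate 1 and 1.26 in replicate 2. Its estimated reads were 209 and 36.9, a log2 ratio of −2.53 or 5.76-fold lower in replicate 2, and 67.0% of its windows were shared with other genes. Its counts were not whole. The part of shared sequence in this difference was not tested.

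Among members with a mean count of at least 200, Gm26762 had 287 and 453 reads (log2 ratio 0.61) and Gm26825 had 963 and 1500.4 (0.59). Gm26825 shared 81.8% of its windows with the chaperone gene Hspa8, which was at 1361 and 1684 TPM. The next in this direction were Gm26580 at 0.21, Gm26735 at 0.19, BC043934 at 0.17 and 5031425E22Rik at 0.17. In the other direction, Gm26718 had 418 and 342 reads (−0.33) and Gm5860 394 and 328 (−0.31), followed by 2410018L13Rik at −0.28, D930016D06Rik at −0.27, 2810429I04Rik at −0.25 and Ino80dos at −0.24. Below that depth, Redrum, an RNA studied in red cell differentiation, had the highest ratio of all members, 0.95 from 50 and 100 reads, and was chosen after its value was seen. Mir17hg had 137 and 230 reads (0.70).

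**Figure D5:**
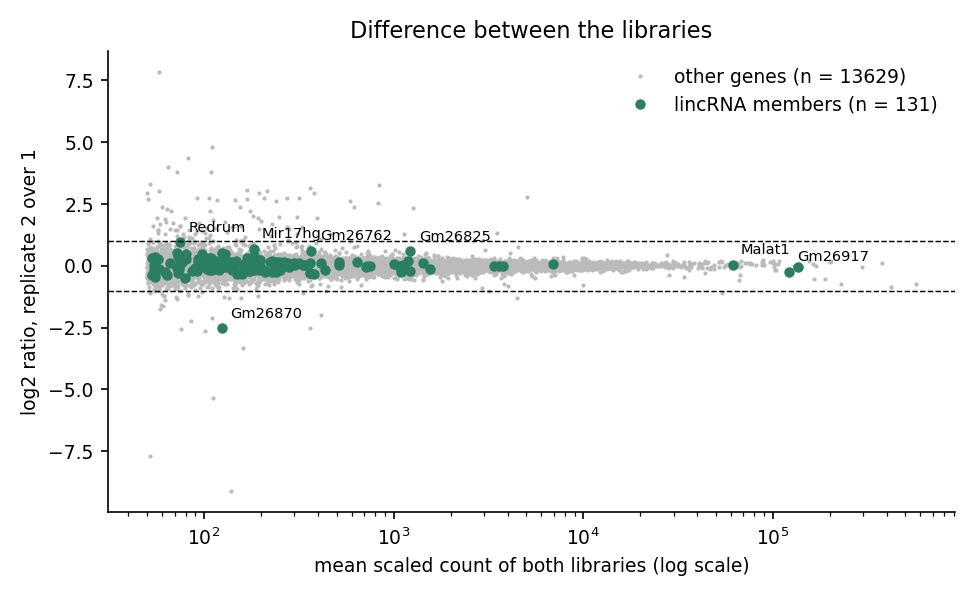
Log2 ratio of replicate 2 over replicate 1 against mean scaled count (log scale) for 131 members and 13629 other genes with a mean of at least 50, with dashed lines at 2-fold. Gm26870 is the only member outside the lines.

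Markers of other cell types differed between the libraries beside these ratios. The 10 liver markers with enough reads were all higher in replicate 2, at a median log2 ratio of 2.35, and 8 of 10 erythroid markers were lower, at a median of −0.63, while 12 cardiomyocyte markers had a median of 0.09. Macrophage markers were lower in 8 of 9 cases (median −0.31), lung markers in 5 of 6 (−0.26) and endothelial markers in 7 of 10 (−0.09), and all 7 skeletal muscle markers were higher (0.20). Log2 ratios are not given here for the fibroblast, epicardial and smooth muscle lists. Fibroblast markers summed to 1779 TPM in replicate 1 and 1536 in replicate 2, and epicardial markers were also lower in sum in replicate 2. Smooth muscle markers summed to 1269 and 1477 TPM. On this scale the median gene was higher in replicate 2 by 0.15 (log2). The part of all these cell types in the ratios of single members was not tested.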

How the data were processed

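Total RNA-seq of 2 heart libraries, biological replicates of 1 group per the labels, was analysed from the files the authors deposited. The expected counts per gene and transcript are estimates from transcriptome alignments, per the file headers and descriptions, on mm10 with annotation M4. The deposited TPM values sum to 1 fixed total per library, with spike-ins counted in (11.1% and 5.04% of TPM). The deposited interval bounds of TPM are treated as a score because the level is not stated. The percent columns give a transcript's share of its gene, per the file headers. The aligner, quantifier, versions and use of strand were not given in any source at hand. Depth was 36733400 and 36060765 reads.

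Genes were matched without version to GENCODE M21 (42462 of 43346), which gave class and position. In R 4.3.3, rounded counts were scaled by TMM (edgeR 4.0.16). DESeq2 1.42.0 size factors were the alternative. Log2 ratios are of scaled counts with 0.5 added, at a mean of at least 50; called means at least 2-fold apart. The ratio step was tested on simulated counts with known changes. From the common dispersion that edgeR estimates, the square root was taken as coefficient of variation. Whole counts are within 0.005 of an integer. Matching, counting and plots were done in Python 3.11.15 with pandas 2.3.3, numpy 2.4.6 and matplotlib 3.10.9.

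The members and lists were chosen with earlier results of these data known. Genes named are the 15 highest members, members on the list of studied long non-coding RNAs, members within 100 kb of a cardiac gene, the 6 largest ratios each way at a mean count of at least 200, the 3 genes on each side of the minimum, and hosts of small RNAs. Further names were chosen after their values were seen. Alternatives covered minimum, TPM column, gene class, distance, scaling, added count, depth and leaving out either replicate. Spreading reads over the longest transcript, and leaving out Gm42418 and Gm26917, were added after seeing the data.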

Additional observations from a re-analysis of the deposited data

How the results depend on the processing

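The number of members fell to 100 and 57 with a minimum of 2 and 5 TPM and was 560 over all long non-coding classes; a minimum of 0.5, the posterior mean TPM, TPM without spike-ins and either library alone gave 176 to 248. The median TPM was 3.21 without spike-ins and 2.66 to 2.96 with 1 library left out. The members' share of TPM, 1.08%, became 1.17% without spike-ins, 0.667% without Gm42418 and Gm26917, and 0.551% with reads spread over the longest listed transcript. The last moved 7 of the 15 highest members by more than their SD, Malat1 to 316 TPM, and lowered 23 of 166 members by over 1.5 times. Such spreading used only the M4 models, so it does not cover longer models of M21. Examples are 2900097C17Rik (1149 nt listed, 4915 nt in M21) and Lockd (544 nt and 5662 nt). Within 500 kb, 19 members lay near a cardiac gene. At over 80%, 26 members had 1 leading transcript.

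Scaling by spike-in totals moved the median log2 ratio of members to 1.31 and of all genes to 1.29. It put 120 of 131 members and 12800 of all 13760 genes at least 2-fold higher in replicate 2, so the shift was not particular to members. The ratio of TPM gave 0.15 for both, with 1 member and 152 of all 13760 genes at least 2-fold higher. With a mean count of at least 200, 0 of 49 members and 7 of all 11211 genes were at least 2-fold lower. Of 47 named members with a ratio, 47 moved by over 0.1 with spike-in totals, 44 with TPM and 0 with DESeq2 size factors. Leaving out a library leaves no ratio to compute. No paired analysis was possible because there is 1 group.

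Depth limits the lowest members, 40 of which had under 50 reads in a library, and 35 of 166 had too few for a ratio.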
